A study of Homo sapiens with 9 samples.

Results

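Metallothioneins are small, cysteine-rich proteins that bind zinc and copper in the cytosol and also take up toxic metals such as cadmium. The 6 metallothionein genes described here, MT2A, MT1E, MT1M, MT1F, MT1G and MT1X, were chosen by name and found by NCBI gene identifier among the 28395 genes of the count table. Their mRNA was measured by RNA-seq in 3 human kidney lines with 3 libraries each. HK2 is a line of proximal tubule cells from normal kidney, 786-O was derived from a primary clear cell renal cell carcinoma (ccRCC), and 786-M1A is a metastatic derivative of 786-O recovered from lung metastases in mice. All of them had been grown stably in Plasmax, a medium modelled on human plasma, and none received a treatment. Each line stands for a single donor, and 786-O and 786-M1A come from the same tumour, so a difference of the cancer lines from HK2 cannot be told apart from one between donors.

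Metallothionein genes are switched on when zinc rises in the cell. The zinc sensor MTF1 then binds short sequences named metal response elements (MREs) in their promoters, and the zinc exporter gene SLC30A1 is activated through the same sensor. Glucocorticoids and oxidative stress also raise metallothionein mRNA, and the kidney, where cadmium bound to metallothionein is taken up by the proximal tubule, is one of the tissues in which these proteins have been studied most.

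The promoters of MT2A and MT1X are shown because matches to the core letters of an MRE are visible in them. The RefSeq table of promoters on GRCh38.p14 held 2 of the 6 genes. MT1E, MT1M, MT1F and MT1G were not matched. The 250 bases before the transcript start are printed 5′ to 3′ on the plus strand, which is the gene's strand for both, and capitals mark the core of an MRE, TGCACNC or TGCGCNC, on either strand. The MT2A stretch is chr16:56608334-56608583 and the MT1X stretch chr16:56682220-56682469.
MT2A: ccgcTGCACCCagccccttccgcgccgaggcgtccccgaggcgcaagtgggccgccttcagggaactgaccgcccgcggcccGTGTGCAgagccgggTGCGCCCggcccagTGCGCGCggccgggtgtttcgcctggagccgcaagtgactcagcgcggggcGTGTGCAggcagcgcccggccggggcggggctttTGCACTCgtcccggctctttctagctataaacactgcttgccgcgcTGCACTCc
MT1X: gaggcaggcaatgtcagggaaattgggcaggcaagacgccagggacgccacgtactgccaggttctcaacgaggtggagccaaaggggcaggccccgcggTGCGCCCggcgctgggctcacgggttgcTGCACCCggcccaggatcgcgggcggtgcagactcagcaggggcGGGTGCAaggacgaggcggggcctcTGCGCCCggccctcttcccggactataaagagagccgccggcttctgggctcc

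The MRE core occurred 7 times upstream of MT2A, 5 times on the gene's strand and 2 times on the other. Of 35116 promoters searched over the same 250 bases, 11 (0.0313%) held at least as many. MT1X had 4 matches, a number reached by 130 promoters (0.37%), while 24.8% of promoters held at least 1. Both promoters thus carried repeated copies of the core, although a match of letters is no evidence of binding. The GC box GGGCGG occurred 2 times in each (24.3% of promoters have at least as many and 42.6% at least 1). The core of the hypoxia response element, ACGTG or GCGTG, occurred 1 time in each (43.2% of promoters). A TATA box, TATAAA, lay between -29 and -24 in MT2A and between -30 and -25 in MT1X, and 10.7% of promoters had one. The MRE core at -88 to -82 of MT2A overlapped the hypoxia response core at -90 to -86, and that at -78 to -72 of MT1X overlapped a GC box.

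**Figure D1:**
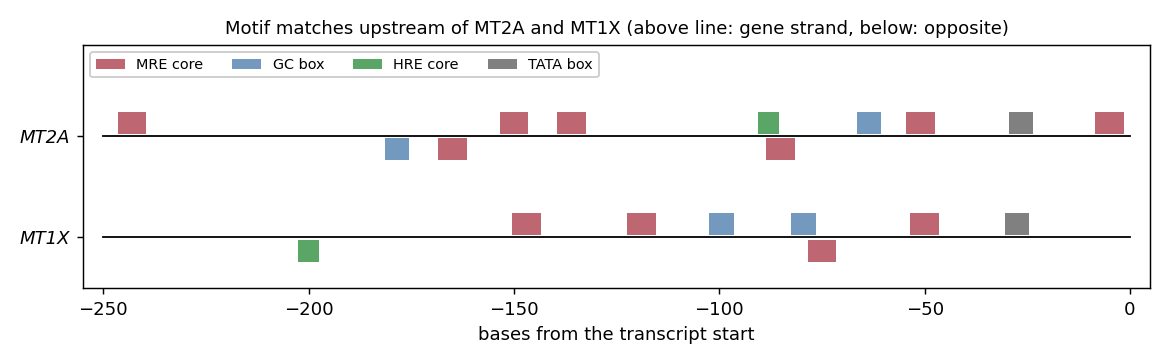
Motif matches in the 250 bases upstream of MT2A and MT1X, against the distance in bases from the transcript start. Boxes above each line are on the strand of the gene and boxes below on the opposite strand. The 7 MRE cores of MT2A are spread over the window from -246 to -2, and the 4 of MT1X lie between -150 and -47.

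All 6 genes lie in a single cluster on chromosome 16 of GRCh38, within 75.6 kb. MT2A (NCBI gene 4502) is at chr16:56608584-56609497, MT1E (4493) at chr16:56625781-56627112, MT1M (4499) at chr16:56632659-56633981 and MT1F (4494) at chr16:56657959-56659303, all on the plus strand. MT1G (4495) is at chr16:56666730-56668065 on the minus strand, and MT1X (4501) at chr16:56682470-56684196 on the plus strand, where a long non-coding RNA gene of the same strand overlaps it. The count table listed 16 genes and pseudogenes of the family, 15 of them on chromosome 16.

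The depth was 30212291 to 45362428 counts per library, so that 3 counts, the floor used here, were 0.0661 to 0.0993 CPM (counts scaled to library size). Together the 6 genes took 0.0157% to 0.0184% of the counts in HK2, 0.0201% to 0.0224% in 786-O and 0.0332% to 0.0364% in 786-M1A. Every library carried the renal epithelial marker PAX8, with means of 167, 165 and 182 CPM in HK2, 786-O and 786-M1A. The other markers of that list were uneven, with KRT8 (662, 301 and 384 CPM) and KRT18 (427, 164 and 186 CPM) highest in HK2 and PAX2 (3.49, 24.9 and 10.7 CPM) highest in 786-O. Of the 8 genes of proximal tubule function, LRP2, SLC22A6 and SLC22A8 had 0 counts in all 9 libraries, HK2 included. CUBN, SLC34A1 and AQP1 had means of 0.0498 to 1.06 CPM, the lowest being SLC34A1 in 786-O, a mean under the floor. GGT1 was present in every line (107.5, 80.5 and 88.2 CPM), and ANPEP was lowest in HK2 (1.74, 112 and 19.8 CPM). The carcinoma markers VEGFA (19.3, 162 and 330 CPM in HK2, 786-O and 786-M1A) and EGLN3 (1.72, 49.98 and 127 CPM) were higher in both cancer lines, but CA9 had 0, 4 and 1 counts in HK2, 786-O and 786-M1A, summed over libraries. PTPRC, CD3E and SFTPC, markers of leukocytes and lung epithelium, had 0 counts throughout, and LYZ, PECAM1, CDH5, SFTPB and PDGFRA at most 6 in a library. The fibroblast collagen COL1A1 averaged 53.6 CPM in HK2 compared with 291 in 786-O and 16.5 in 786-M1A, and its part in the results was not tested.

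MT2A, the gene of the widely expressed metallothionein 2, was the most abundant member. Its level was 113.6, 131.0 and 136.7 CPM in the 3 HK2 libraries, 172.2, 152.9 and 162.3 in 786-O and 285.8, 279.7 and 259.8 in 786-M1A. The lines did not overlap, and every 786-M1A library stood above every 786-O library. In such bulk samples a larger number of expressing cells and more mRNA per cell cannot be told apart. Against HK2, 786-O was 1.28-fold higher (log2 fold change 0.35, SE 0.0641, edgeR adjusted p = 0.000166) and 786-M1A 2.16-fold higher (log2 fold change 1.11, SE 0.0641, edgeR adjusted p = 6.97e-10). Between the cancer lines MT2A was 1.69-fold higher in 786-M1A (log2 fold change 0.76, SE 0.0633, edgeR adjusted p = 1.86e-07).

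MT1E, a member of the metallothionein 1 group, followed the same order of lines. It measured 27.44, 29.18 and 31.11 CPM in HK2, 44.28, 40.46 and 43.87 in 786-O and 80.42, 81.21 and 74.22 in 786-M1A, again with no overlap. The 786-O line was 1.46-fold above HK2 (log2 fold change 0.55, SE 0.0545, edgeR adjusted p = 5.4e-09). The 786-M1A line was 2.68-fold above HK2 (1.42, SE 0.0532, adjusted p = 1.79e-16) and 1.83-fold above 786-O (0.87, SE 0.0512, adjusted p = 4.11e-12), all by edgeR. The MT1E differences were the largest upward ones among the 4 members tested, in each comparison.

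MT1F went the other way against HK2. The HK2 libraries held 3.92, 3.966 and 3.84 CPM, the 786-O libraries 2.365, 2.202 and 2.313, and the 786-M1A libraries 2.736, 2.344 and 2.219. Both cancer lines were below all HK2 libraries, by a log2 fold change of -0.77 (SE 0.11, edgeR adjusted p = 1.42e-06) in 786-O and -0.69 (SE 0.111, edgeR adjusted p = 6.99e-06) in 786-M1A. Their own libraries overlapped. The difference of 786-M1A from 786-O was 0.08 on the log2 scale with an approximate 95% interval of -0.16 to 0.32 (edgeR adjusted p = 0.6).

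MT1X had the smallest differences from HK2 among the 4 members tested. Its level was 5.366, 5.578 and 5.458 CPM in HK2, 5.001, 4.537 and 4.979 in 786-O and 6.439, 6.746 and 6.233 in 786-M1A. The 786-M1A libraries were the highest and the 786-O libraries the lowest, without overlap. 786-M1A was higher than HK2 (log2 fold change 0.24, SE 0.0833, edgeR adjusted p = 0.0111) and than 786-O (0.42, SE 0.0841, edgeR adjusted p = 0.000245). The value for 786-O against HK2, -0.18 (SE 0.0859), missed the threshold with an edgeR adjusted p of 0.0628, and passed it under upper-quartile scaling (-0.22, adjusted p = 0.0257) and when each library had to reach 10 counts (-0.19, adjusted p = 0.0449).

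MT1M was counted almost entirely in HK2. The HK2 libraries had 70, 117 and 121 counts, or 2.249, 2.9 and 2.611 CPM. In 786-O the counts were 0, 1 and 0, and in 786-M1A they were 0, 2 and 0, all under the floor of 3 counts. Summed over libraries and scaled to depth, HK2 held 325 times as much as 786-O (308 counts against 1, 95% exact counting interval 58.0 to 12900) and 147 times as much as 786-M1A (308 against 2, 40.3 to 1220). The gene missed the filter of 50 counts on average. In an edgeR fit without that filter it was lower in 786-O (adjusted p = 5.78e-75) and in 786-M1A (adjusted p = 5.15e-68), and the cancer lines were not told apart (adjusted p = 0.681). P-values of that fit are not comparable with those of the main fit. In 786-O against HK2, the edgeR adjusted p of MT2A was 8.12e-19 without the filter and 0.000166 with it. That of MT1X was 0.173 without it and 0.0628 with it.

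MT1G was low in all lines. Its counts were 8, 9 and 10 in HK2, 4, 2 and 2 in 786-O and 4, 5 and 4 in 786-M1A, and it also missed the filter. HK2 stood above the other libraries. The ratio of HK2 to 786-O was 3.57 (exact counting interval 1.58 to 9.08) and that of HK2 to 786-M1A 1.98 (0.988 to 4.18). Without the filter edgeR gave an adjusted p of 0.00494 for 786-O against HK2, of 0.112 for 786-M1A against HK2 and of 0.403 between the cancer lines. These intervals cover counting error only.

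**Figure D2:**
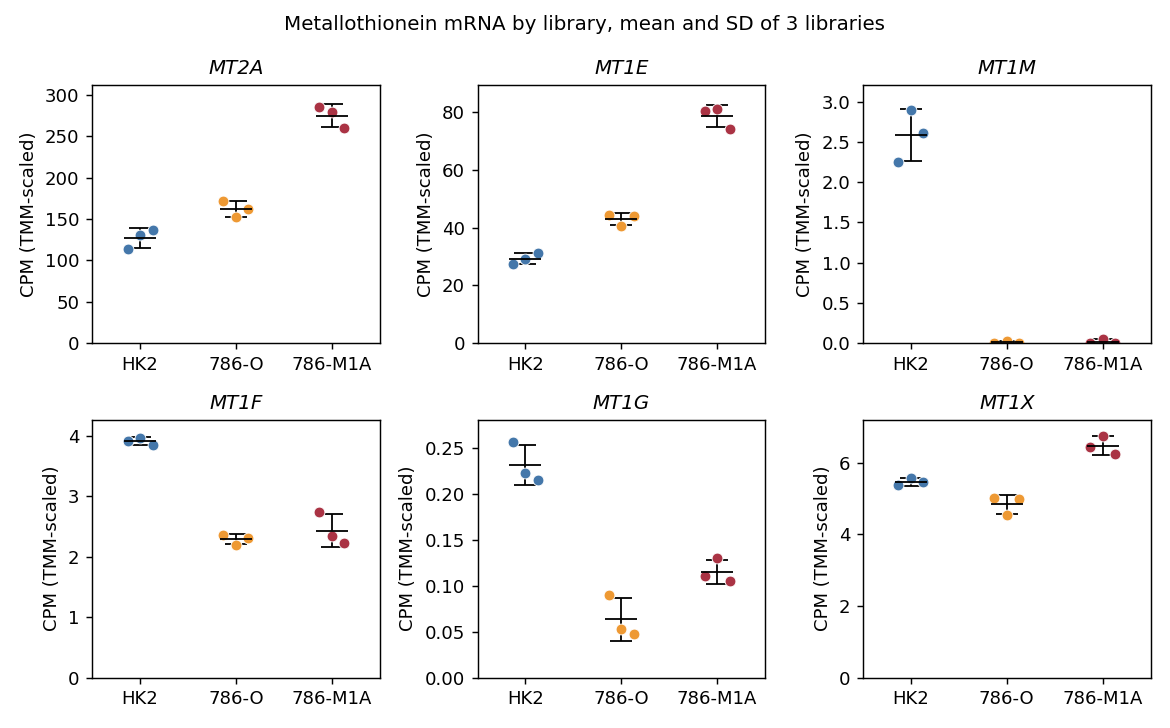
Level of each metallothionein gene in CPM (TMM-scaled, linear axes that start at 0) in the 9 libraries, with 1 point per library and the mean and SD of 3 libraries as bars. MT2A and MT1E rise from HK2 to 786-O to 786-M1A, MT1M is seen in HK2 at 2.249 to 2.9 CPM and near 0 elsewhere, and MT1F and MT1G are highest in HK2.

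Of the 6 members, 4 passed the filter (MT2A, MT1E, MT1F and MT1X), and each of these had counts in every library. In 786-O against HK2, 3 of the 4 were called, 2 higher and 1 lower, where edgeR called 84.2% of the 12695 genes tested (41.6% higher and 42.6% lower). In 786-M1A against HK2, all 4 were called, 3 higher and 1 lower, beside 84.9% of genes (41.6% higher, 43.3% lower). Between 786-M1A and 786-O, 3 were called, all higher, beside 56.0% of genes (27.9% higher, 28.0% lower). With most genes called in the comparisons with HK2, such counts set no gene apart, and the sizes say more. Without the filter, edgeR called 5 of 6 members in 786-O against HK2 and 5 of 6 in 786-M1A against HK2, with MT1M lower in both and MT1G lower in the first, beside 63.8% and 64.7% of 21241 genes, and 3 of 6 between the cancer lines beside 38.0%.

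Relative to all genes, the MT1E and MT2A differences ranked higher between the cancer lines than against HK2. Of all tested genes, 8.59% differed more than MT1E between 786-M1A and 786-O in absolute log2 fold change and 10.1% differed more than MT2A, where the median absolute value of all genes was 0.174. For 786-M1A against HK2 these shares were 16.9% and 22.5%, with a median absolute value of 0.51. In 786-O against HK2 the MT2A difference was smaller than that of 60.3% of genes, and the MT1X difference smaller than that of 78.7%. The 3 comparisons share libraries and are not independent of each other. The exact two-sided permutation test of a single gene reached its smallest possible p, 0.1 with 3 libraries against 3, wherever the libraries did not overlap.

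**Figure D3:**
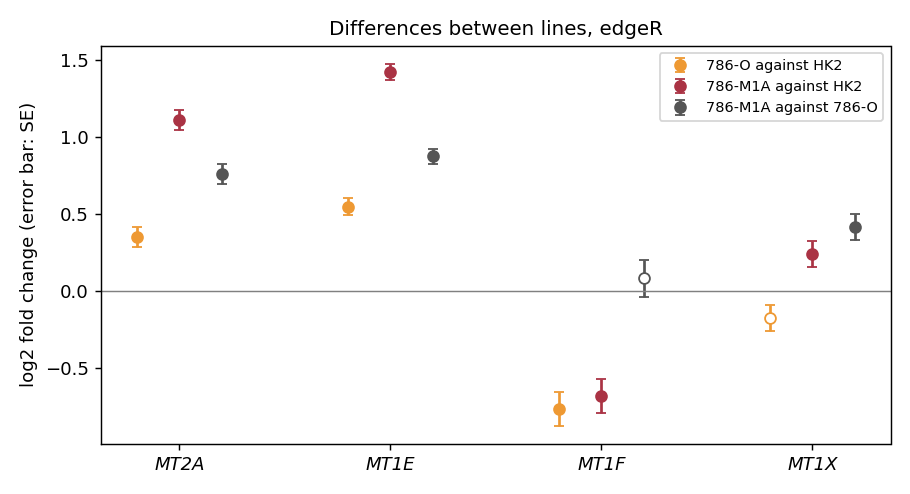
Log2 fold change of the 4 tested metallothionein genes in the 3 comparisons, with the SE of edgeR as error bars and filled points for an adjusted p under 0.05. MT2A and MT1E lie above 0 in all comparisons, MT1F lies at -0.77 and -0.69 against HK2, and the open points are MT1X in 786-O against HK2 and MT1F between the cancer lines.

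Levels of different genes were compared as RPKM, which scales counts by exon length and library size. MT2A made up most of the summed RPKM of the 6 members (78.3%, 79.8% and 79.0% in HK2, 786-O and 786-M1A), and MT1E most of the rest (15.7%, 18.3% and 19.6%). The order in 786-O and 786-M1A was MT2A, MT1E, MT1X, MT1F, MT1G and MT1M. In HK2 MT1M, at 5.06 ± 0.638 RPKM (SD, n = 3), came after MT1E and before MT1X at 3.17 ± 0.0613 and MT1F at 2.11 ± 0.0344. That place depended on the length used, since with the length of the MANE Select transcript MT1M came after MT1F. The summed RPKM was 177.5 ± 15.3 in HK2 compared with 222.6 ± 12.6 in 786-O and 381.0 ± 18.6 in 786-M1A (SD, n = 3 each), which is 1.25 times HK2 in 786-O and 2.15 times HK2 in 786-M1A.

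Within a library, the ratio of counts of 2 members does not depend on the scaling between libraries. The ratio of MT2A to MT1E counts was 4.14, 4.49 and 4.39 in HK2, 3.89, 3.78 and 3.7 in 786-O and 3.55, 3.44 and 3.5 in 786-M1A, with no overlap between the lines. The MT1E to MT1F ratio moved much further, from 7.49 ± 0.56 in HK2 to 18.7 ± 0.3 in 786-O and 32.5 ± 2.8 in 786-M1A (SD, n = 3 each). The members therefore did not change in equal proportion.

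Other genes of the cluster split in the same manner. MT1A, a metallothionein gene near MT1M, had 46, 58 and 55 counts in HK2, 1, 3 and 4 in 786-O and 6, 7 and 4 in 786-M1A. The HK2 level was 21.0 times that of 786-O (exact counting interval 10.4 to 49.5) and 8.93 times that of 786-M1A (5.4 to 15.7). MT1L, a transcribed pseudogene between MT2A and MT1E, was highest in 786-M1A, with 102, 111 and 89 counts there, 15, 8 and 19 in 786-O and 0, 0 and 1 in HK2. Its 786-M1A level was 7.96 times that of 786-O (5.75 to 11.3). The pseudogene MT1JP passed the filter and was higher in 786-M1A than in HK2 (log2 fold change 1.29, edgeR adjusted p = 2.84e-05) and than in 786-O (0.77, edgeR adjusted p = 0.00308), while 786-O against HK2 gave 0.52 with an edgeR adjusted p of 0.0525. That comparison passed the threshold in 5 of 14 alternatives, among them without the second HK2 library (adjusted p = 0.00334) and without the second 786-O library (adjusted p = 0.0291). MT3, MT4 and MT1IP had 0 counts in every library, and MT1B, MT1H, MT1DP and MT1HL1 had at most 2 counts in a library.

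The family's transcripts resemble each other, which bears on how reads were divided among them. The MANE Select transcript of each member, the annotation's representative one, was compared in windows of 75 bases with all transcripts of the other genes. No window of the representative MT2A, MT1M or MT1F transcript was found unchanged elsewhere. Exact sharing affected 1.64% of the windows of MT1E (with non-representative transcripts of MT1G and MT1M), 6.55% of MT1G (with MT1X and a pseudogene) and 8.18% of MT1X (with MT1G and a pseudogene). Within 3 mismatches of another family transcript lay 35.2% of the MT2A windows, 31.6% of MT1E, 38.0% of MT1M, 13.7% of MT1F, 32.1% of MT1G and 25.2% of MT1X. Of the MT1E windows, 61 lay that near to the pseudogene MT1JP and 34 to MT1L, and 90 of the MT1M windows to MT1JP. How multi-mapping reads were counted is not given in the sources used here, so the division of counts among family genes, these pseudogenes included, is uncertain.

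Genes next to the cluster showed smaller differences between the cancer lines than MT2A, MT1E and MT1X. Within 500 kb lay 17 other genes of the table, of which 9 were tested. Between 786-M1A and 786-O 3 of these were higher and 1 lower, with log2 fold changes from -0.16 (HERPUD1, an endoplasmic reticulum stress gene) to 0.19 (CPNE2). In 786-O against HK2, 5 were higher and 3 lower, between -0.69 (BBS2, a component of the complex that traffics proteins to the cilium) and 1.06 (NLRC5, a regulator of MHC class I genes). The same counts, 5 and 3, held for 786-M1A against HK2, from -0.60 (BBS2) to 1.14 (NLRC5). Of all genes tested, edgeR called 84.2% in 786-O and 84.9% in 786-M1A against HK2, and 56.0% between the cancer lines. Beside these shares the counts of neighbours called do not stand out. NUP93, the tested gene next to MT1X and a protein of the nuclear pore, had 160.7, 128.5 and 141.8 CPM on average in HK2, 786-O and 786-M1A. Among the neighbours that missed the filter, GNAO1 averaged 1.94 CPM in HK2 but 0.0242 in 786-O and 0.0 in 786-M1A. Like MT1M, it was thus counted almost entirely in HK2. The range of the tested neighbours between the cancer lines did not reach the values of MT2A, MT1E or MT1X, while that of MT1F, 0.08, lay inside it. This is a description with no test.

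**Figure D4:**
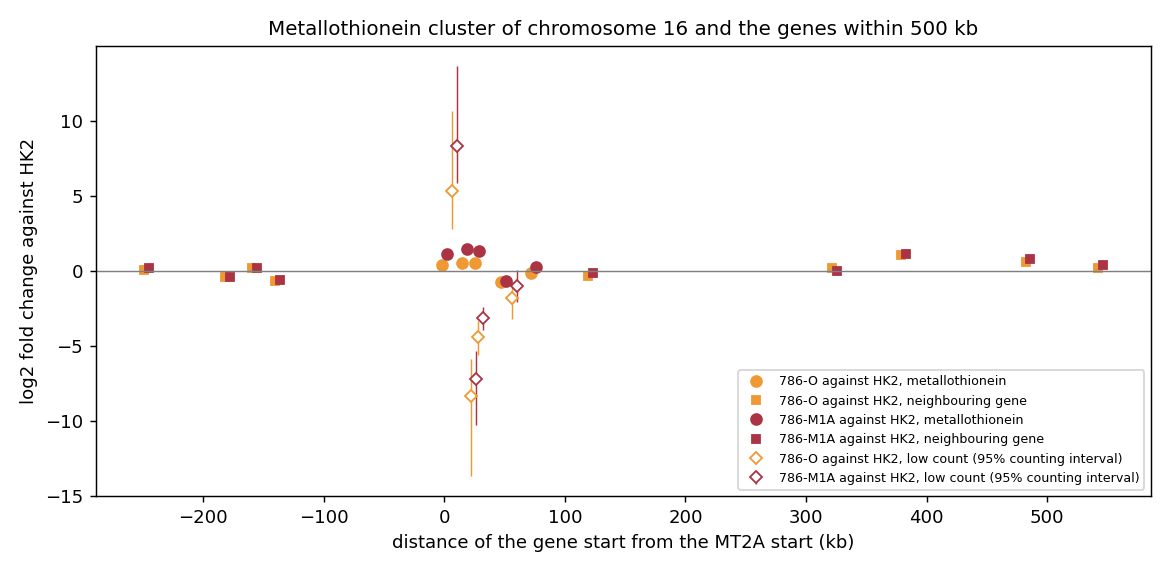
Log2 fold change against HK2 of the metallothionein genes and of the tested genes within 500 kb, against the distance of each gene's start from that of MT2A in kb, with the points of the 2 cancer lines drawn side by side around each gene's start. Circles are tested family genes, squares are neighbours, and open diamonds are low-count family genes (MT1L, MT1M, MT1A and MT1G) with the 95% counting interval of the ratio, which run from MT1L above 0 to MT1M far below 0 inside the same cluster.

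The zinc genes did not move as a group. Of 25 genes of zinc sensing and transport, 18 were tested, and 10 were higher and 7 lower in 786-O against HK2, with a median log2 fold change of 0.11 beside -0.01 for all genes. In 786-M1A against HK2, 8 were higher and 7 lower (median 0.03 beside -0.02), and between the cancer lines 2 were higher and 8 lower (median -0.10 beside 0.0). Without the third 786-O library the last count of calls fell from 10 to 6. In the same order of comparisons, edgeR called 84.2%, 84.9% and 56.0% of all genes tested. MTF1 itself had 38.08, 35.47 and 38.86 CPM in HK2, 39.98, 42.29 and 40.33 in 786-O and 36.12, 41.44 and 40.41 in 786-M1A. Its log2 fold change was 0.12 in 786-O against HK2 (edgeR adjusted p = 0.038), a call lost in 7 of 14 alternatives, with adjusted p between 0.00744 and 0.212. Among these were the fits without the first (0.0627) or second (0.212) HK2 library and without the second (0.124) or the third (0.0501) 786-O library. The other comparisons gave 0.07 (adjusted p = 0.238, but 0.0193 without the first 786-M1A library) and -0.05 (adjusted p = 0.402) by edgeR.

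SLC30A1, the zinc exporter activated through MTF1, ran opposite to MT2A and MT1E. It stood at 29.15, 27.14 and 26.43 CPM in HK2, 14.91, 16.77 and 15.55 in 786-O and 11.03, 12.53 and 12.02 in 786-M1A, with no overlap. It was lower in 786-O than in HK2 (log2 fold change -0.81, SE 0.0612, edgeR adjusted p = 5.49e-11), lower in 786-M1A than in HK2 (-1.21, SE 0.0643, edgeR adjusted p = 8.86e-14) and lower in 786-M1A than in 786-O (-0.41, SE 0.0677, edgeR adjusted p = 2.81e-05). The zinc importer SLC39A10 averaged 305.6 CPM in HK2 but 115.2 in 786-O and 108.6 in 786-M1A, with log2 fold changes against HK2 of -1.41 and -1.49 (edgeR adjusted p = 1.2e-14 and 4.7e-15). SLC30A4, which moves zinc into vesicles, also fell, by 0.98 and 1.70 on the log2 scale against HK2 (edgeR adjusted p = 4.25e-07 and 5.04e-10), and was lower in 786-M1A than 786-O (-0.72, edgeR adjusted p = 0.00097). By contrast SLC39A11 was higher in 786-O than in HK2 (0.95, edgeR adjusted p = 1.29e-12). SLC39A4, the importer of dietary zinc in the gut, had its higher level in 786-M1A when set against 786-O (0.85, edgeR adjusted p = 9.43e-10).

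Copper genes moved in both directions. Of 11 genes 10 were tested, with 5 higher and 2 lower in 786-O against HK2 (median log2 fold change 0.12), 3 and 3 in 786-M1A against HK2 (median 0.05), and 3 and 3 between the cancer lines (median 0.01), where 84.2%, 84.9% and 56.0% of all genes were called. The copper importer SLC31A1 was higher than in HK2 by 0.63 in 786-O and 0.76 in 786-M1A on the log2 scale (edgeR adjusted p = 5.95e-12 and 2.06e-13). CCS, the copper chaperone of superoxide dismutase, was lower in 786-O than in HK2 (-0.88, edgeR adjusted p = 2.37e-10) while 786-M1A exceeded 786-O (0.53, edgeR adjusted p = 3.86e-06). The copper exporter ATP7B was higher in 786-O than in HK2 (0.61, edgeR adjusted p = 5.27e-08) and lower in 786-M1A than in 786-O (-0.46, edgeR adjusted p = 9.41e-06), and the related exporter ATP7A was lower in that last comparison too (-0.41, edgeR adjusted p = 0.000498). In 786-M1A against HK2, SCO1, a copper chaperone of cytochrome c oxidase, was lower (-0.61, edgeR adjusted p = 1.67e-09) and the transporter gene SLC31A2 higher (0.48, edgeR adjusted p = 6.22e-06).

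The glucocorticoid receptor and its known targets were examined because glucocorticoids induce metallothioneins. Of 8 genes 7 were tested. Against HK2, 2 were higher and 5 lower in 786-O (median log2 fold change -0.76), 2 were higher and 4 lower in 786-M1A (median -0.83), and 1 was higher and 4 lower in 786-M1A against 786-O (median -0.18). In the same order, 84.2%, 84.9% and 56.0% of all genes tested were called, with medians of -0.01, -0.02 and 0.0. NR3C1, the receptor, averaged 61.4 CPM in HK2 compared with 204 in 786-O and 171 in 786-M1A (log2 fold changes 1.73, 1.47 and, between the cancer lines, -0.26). Its tested targets were mostly lower than in HK2, but did not all follow 1 direction. SGK1, a kinase gene, averaged 127.2 CPM in HK2 against 16.4 in 786-O and 13.4 in 786-M1A, and PER1, a clock gene, had log2 fold changes of -1.80 and -1.87. KLF9, a transcription factor gene and the only target called higher than in HK2, was higher by 2.32 and 2.14. Each of these differences from HK2 passed the edgeR threshold. Between the cancer lines DUSP1, a phosphatase gene (-0.41, edgeR adjusted p = 1.59e-07), and SGK1 (-0.29, edgeR adjusted p = 0.000769) were lower in 786-M1A, and FKBP5, a co-chaperone of the receptor, was higher there (0.26, edgeR adjusted p = 0.00022).

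Of 6 other genes that respond to metals or oxidants, all tested, 2 were higher and 3 lower in 786-O against HK2, 3 and 3 in 786-M1A against HK2, and 2 and 2 between the cancer lines. The shares called of all genes tested were 84.2%, 84.9% and 56.0%. TXNRD1, thioredoxin reductase, averaged 835.2 CPM in HK2 but 371.4 in 786-O and 440.6 in 786-M1A. GCLC, of glutathione synthesis, had log2 fold changes of -0.42 and -0.39 against HK2. HMOX1, heme oxygenase, was higher in 786-M1A than in HK2 (0.26, edgeR adjusted p = 0.00074) and than in 786-O (0.45, edgeR adjusted p = 4.31e-06). In 786-O it was lower than in HK2 (-0.19, edgeR adjusted p = 0.0121), a call lost without the third 786-O library (adjusted p = 0.111). HSPA1A and HSPA1B are near-identical copies whose reads may be split, so their values are uncertain. HSPA1B gave 0.58 in 786-O against HK2 and -0.37 between the cancer lines, where HSPA1A gave -0.29.

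**Figure D5:**
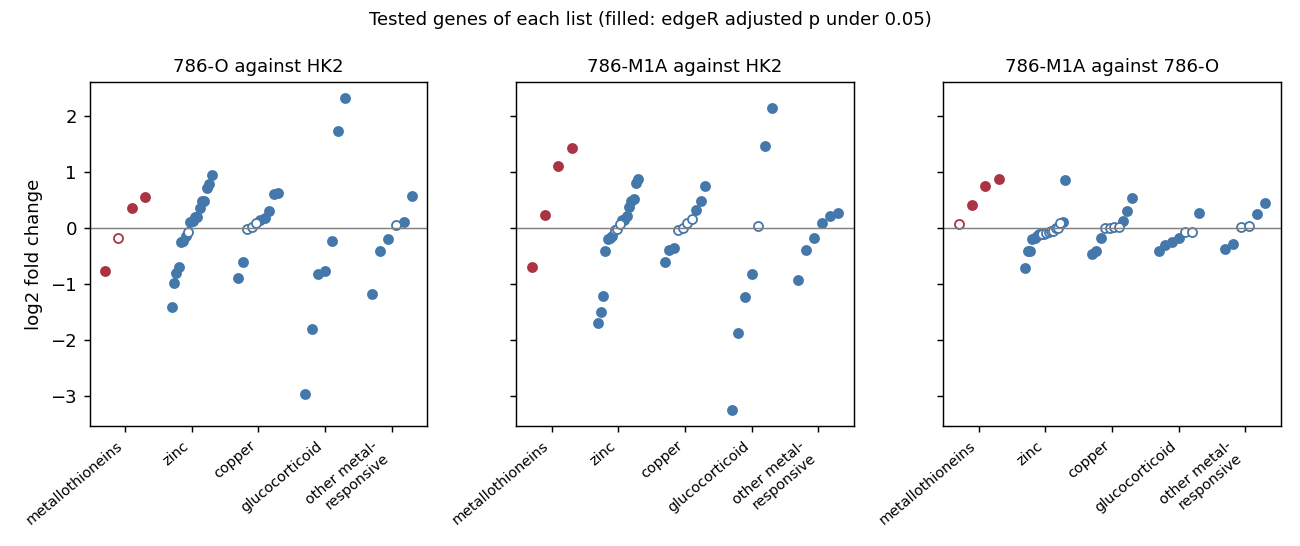
Log2 fold changes of the tested genes of each list in the 3 comparisons, each point a gene ordered by value within its list and filled where the edgeR adjusted p was under 0.05. Metallothioneins are in red, and in each comparison the zinc, copper, glucocorticoid and other metal-responsive lists hold points on both sides of 0.

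The genes most like MT2A in their pattern were found by the Euclidean distance between centred log2 CPM values over the 9 libraries, among 12690 genes outside the family. These were SAP30 (distance 0.161), NAA80 (0.178), SH3GLB2 (0.208), PROSER2 (0.22) and TPBG (0.261). SAP30, a subunit of a histone deacetylase complex, averaged 13.4, 16.5 and 27.8 CPM in HK2, 786-O and 786-M1A, and TPBG, a cell surface glycoprotein gene, 37.0, 51.3 and 83.6. The nearest family gene, MT1E, had a distance of 0.397 and would have ranked 31. MT1X (1.1, rank 2577) and MT1F (2.23, rank 9427) were much less like it.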

How the data were processed

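RNA of HK2, 786-O and 786-M1A was sequenced from TruSeq Stranded mRNA libraries. The authors deposited raw counts of reads per gene as whole numbers, made with featureCounts of Rsubread on GRCh38 per the labels and methods. The versions, the strand setting and the handling of multi-mapping reads are not given in the sources used here. The labels number 3 replicates per line, which the study's supplement describes as independent cultures. Its methods state that cells for RNA were plated on replicate dishes the day before extraction. P-values therefore measure the spread between such dishes of a line. Replicate libraries differed beyond sampling noise in every pair.

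Identifiers were matched to RefSeq symbols (27745 of 28395) and to GENCODE release 44 positions. Counts were scaled by TMM, and the 12695 genes that averaged 50 counts or more per library were tested with the robust quasi-likelihood model of edgeR 4.0.16 in R 4.3.3, with all 9 libraries in 1 fit, a coefficient per line and Benjamini-Hochberg adjustment over all genes tested (threshold 0.05). Standard errors came from the log2 fold change and the F statistic, and approximate intervals from the normal distribution. The code was tested on simulated data. Exact permutation tests used log2 CPM (prior count 2). Low counts were compared as depth-scaled ratios with exact 95% intervals, which cover counting error only. RPKM used the union of exons of GENCODE and TMM-scaled totals. Windows of 75 bases were compared between MANE Select transcripts and the transcripts of other genes. Alternatives were DESeq2 1.42.0, limma 3.58.1 (voom), RLE and upper-quartile scaling, other filters, fits of just 2 lines, a replicate block, and the omission of single libraries.

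The members and gene lists were chosen with earlier results of these data known. Named were the 6 members, other metallothionein genes, genes within 500 kb, and from each list the 3 tested genes with the largest absolute log2 fold change per comparison, with MTF1, SLC30A1 and NR3C1 always. The 5 non-family genes nearest to MT2A were named too. NUP93 was singled out as the neighbour of MT1X.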

Additional observations from a re-analysis of the deposited data

How the results depend on the processing

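The differences of MT2A and MT1E kept their direction and their call in all 14 alternatives of each comparison, with log2 fold changes of 0.27 to 0.40, 1.04 to 1.17 and 0.72 to 0.81 for MT2A and of 0.50 to 0.59, 1.37 to 1.47 and 0.84 to 0.92 for MT1E (786-O against HK2, 786-M1A against HK2 and 786-M1A against 786-O). MT1F kept its calls against HK2, at -0.81 to -0.74 and -0.77 to -0.61, and stayed uncalled between the cancer lines, at -0.0049 to 0.15. For MT1X in 786-O against HK2 the values ran from -0.22 to -0.13, and the call was gained under upper-quartile scaling (-0.2172) and when each library had to reach 10 counts (-0.1899). Without a filter on low counts, 5 members were called in 786-O against HK2, since MT1M and MT1G then entered the test. The length of the MANE Select transcript, added after seeing the data in place of the planned longest RefSeq transcript, which was not run, raised the summed RPKM to 385.9, 480.1 and 813.5 in HK2, 786-O and 786-M1A, because these lengths are shorter, and left the ratios to HK2 at 1.24 and 2.11.

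The same-numbered libraries did not deviate together in the comparisons with HK2 (correlations from -0.168 to 0.0377), and between the cancer lines each library correlated best with its own number (0.216, 0.0746 and 0.111), a hint from the data and not from the design. With the replicate block, 3, 4 and 3 members were called, as without it, and the calls over all genes were 10688, 10797 and 7157 against 10693, 10784 and 7103. The depth limits MT1M in the cancer lines and MT1G in all lines, where counts are between 0 and 10 per library.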
